A study of Homo sapiens with 14 samples.

Results

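The BEX (brain-expressed X-linked) and TCEAL (transcription elongation factor A-like) genes form a family of small, similar genes on the long arm of the human X chromosome. The 9 genes described here are BEX1, BEX2, BEX4, BEX5, TCEAL1, TCEAL3, TCEAL4, TCEAL8 and TCEAL9. They were chosen by name out of 24461 gene rows in each RNA table, and all 9 were found, TCEAL9 under its older symbol WBP5. A further 5 genes of the family (BEX3, listed as NGFRAP1, and TCEAL2, TCEAL5, TCEAL6 and TCEAL7) served as relatives outside the chosen set. The choice of names was made with results of these libraries known, and the values behind it are not recorded. Levels and differences of the 9 members are therefore a description, without p-values, in both comparisons.

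All libraries came from U251MG, an established human glioblastoma line with the genotype given as WT. RNA-seq covered 4 groups of 3 libraries, namely untransduced control cells, an untransduced radioresistant line, and the radioresistant line carrying either shNC or shIFI16. ATAC-seq covered 1 control and 1 radioresistant library. Radioresistant cells, those with hairpins included, had been given 30 daily fractions of 2 Gy of X-rays, 60 Gy in all. Whether the lines are clones is not given in the sources used here, and 1 hairpin against IFI16 is named, so its effect cannot be told apart from an off-target effect. Column codes of the RNA tables were read as groups: UN as control and UR as radioresistant, after the N and R in the names of the ATAC-seq files, and URN as shNC and URS as shIFI16. IFI16, the gene targeted by the hairpin and a sensor of DNA, was at 125, 139.6 and 127 TPM with shNC and at 7.68, 7.90 and 6.71 TPM with shIFI16, which goes with that reading. No targeted gene checks the control and radioresistant columns.

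BEX proteins are short, largely unfolded adaptors. BEX1 and BEX3 bind the p75 neurotrophin receptor, and BEX1 and BEX2 are known from glioma as genes that can be silenced by promoter methylation. TCEAL proteins are nuclear and resemble part of TFIIS, the factor that restarts stalled RNA polymerase II. Both groups are strongly expressed in brain, and their genes arose by repeated duplication on the X chromosome.

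Expression was given in TPM (transcripts per 1000000), a scale that corrects for transcript length, so levels of different genes can be set side by side. The depth behind the TPM is unknown. Log2 differences are between group means of log2(TPM + 1), a scale that understates changes of low genes. The labels do not say that replicates were separate cultures, so errors measure the spread between these libraries. Control replicate 3 stood apart from its group. Its Pearson's r with control replicate 1, across genes, was 0.975, while pairs in the other groups lay between 0.990 and 0.993. The 2 tables were normalized separately, and no difference was tested across them.

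Many promoters of the family, and of a neighbouring family, carry a similar sequence. It is shown first because most members hold it and the rule names no sequence. In the RefSeq windows of 300 bases (250 before a gene start and 50 after it, GRCh38.p14), the palindromic E-box CACGTG, a site class bound by basic helix-loop-helix factors, was found for 7 of 9 members. It was found for 8.78% of all 27305 genes with a window. The longer form TCACGTGA, which contains CACGTG, was found for 5 of 9 members and for 1.18% of all genes. The letters TGACG, the core of a cyclic AMP response element, were found on one strand or the other for 8 of 9 members and for 28.4% of all genes. These motifs were picked after the sequences had been read, and a match is a description, not a site of binding. Stretches upstream of a RefSeq start are given below, 5′ to 3′ on the gene's strand, with CACGTG in capitals. For BEX4, TCEAL1, TCEAL4 and BEX3 that start is a later one than the first base of the gene, so the stretch lies in or reaches into the gene's span. BEX3 is added as the closest match of BEX1.

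BEX1 (chrX:103064189-103064242, minus strand): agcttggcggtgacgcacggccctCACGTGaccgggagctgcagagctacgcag
BEX3 (chrX:103376467-103376520, plus strand): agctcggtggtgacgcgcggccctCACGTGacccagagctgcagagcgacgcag
BEX2 (chrX:103310991-103311033, minus strand): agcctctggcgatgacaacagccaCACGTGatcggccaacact
BEX4 (chrX:103215065-103215107, plus strand): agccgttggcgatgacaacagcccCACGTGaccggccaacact
BEX5 (chrX:102155999-102156052, minus strand): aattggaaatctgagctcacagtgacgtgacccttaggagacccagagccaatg
TCEAL1 (chrX:103628895-103628948, plus strand): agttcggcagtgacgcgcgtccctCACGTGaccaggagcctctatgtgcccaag
TCEAL3 (chrX:103607859-103607912, plus strand): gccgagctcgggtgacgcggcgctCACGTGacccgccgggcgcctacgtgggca
TCEAL4 (chrX:103585481-103585514, plus strand): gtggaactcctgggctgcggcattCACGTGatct
TCEAL8 (chrX:103255157-103255210, minus strand): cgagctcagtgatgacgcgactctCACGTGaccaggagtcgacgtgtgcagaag
TCEAL9 (chrX:103356462-103356505, plus strand): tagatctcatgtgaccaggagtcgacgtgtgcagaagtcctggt

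Over the 30 bases that end with the motif, BEX1 and BEX3 were identical at 27, and so were BEX2 and BEX4. Among all 55 pairs of the 11 family genes that hold the motif the median was 15 identical bases. BEX5 and TCEAL9 have no CACGTG in their windows, which says only that these letters are absent there. BEX1 and BEX2 had 25 and 17 CpG in their windows, TCEAL3 had 30 and TCEAL9 had 10. The ARMCX and GPRASP genes, a neighbouring family on the same arm, had CACGTG in 5 of 8 cases.

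**Figure D1:**
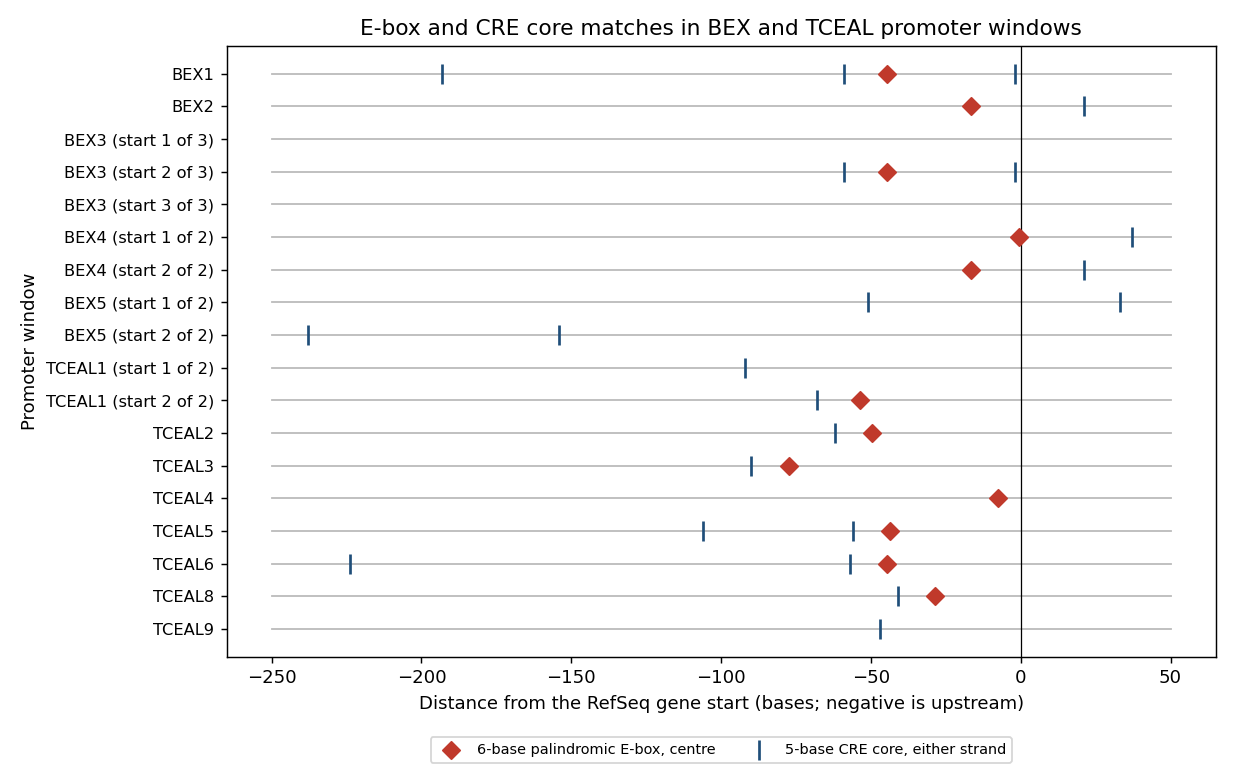
Matches to the E-box (diamonds, at the centre of the 6 bases) and to the CRE core (bars) in each promoter window of the BEX and TCEAL genes, by distance in bases from the RefSeq gene start. E-boxes of members lie close to or just upstream of a start, as in BEX1 where the match begins at -47 and TCEAL3 where it begins at -80, and BEX5 and TCEAL9 have none.

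Of the 9 members, 8 reached 1 TPM in at least 3 of the 6 control and radioresistant libraries, the level needed for testing, and 7 did so in the hairpin libraries. BEX5 reached it in neither table and BEX4 only in the first. At an adjusted p under 0.05 by limma, 1 member was called higher and 2 lower in radioresistant cells, beside 43.9% of all 13127 genes tested (16.9% higher and 27% lower). After IFI16 knockdown 1 was called higher and 4 lower, beside 32.9% of 12567 genes (16.6% higher and 16.3% lower). Groups did not overlap for 1 member higher and 2 lower in radioresistant cells, beside 53.1% of all genes tested (21.5% higher and 31.7% lower), and for 1 higher and 4 lower after knockdown, beside 44.8% (23.4% higher and 21.4% lower). BEX2 and BEX4 were called with at least a 2-fold difference in radioresistant cells, beside 11.4% of genes, and BEX1 after knockdown, beside 2.46%. As the members were chosen with these values in view, nothing is read from these counts. The median log2 difference of the tested members was -0.14 in radioresistant cells, against -0.11 over all genes tested, and -0.19 after knockdown, against 0.02.

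**Figure D2:**
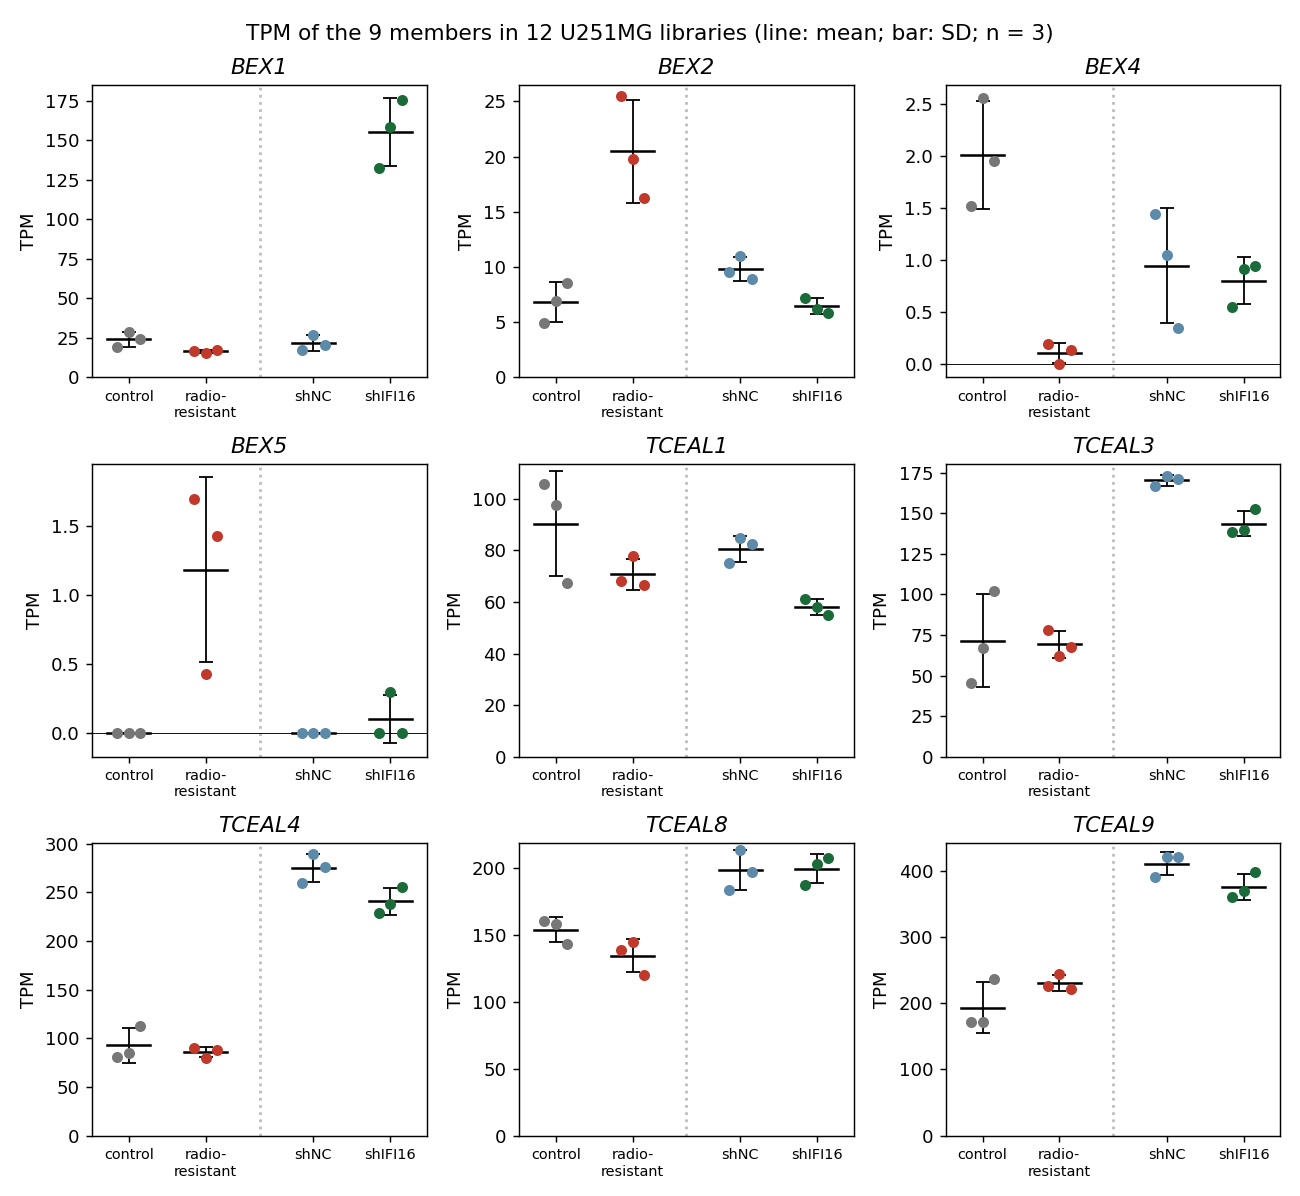
TPM of each member in the 12 RNA libraries (points), with the group mean (line) and SD (bar), n = 3; the dotted line separates the 2 tables, which were normalized separately. BEX1 stands at 132 to 175 TPM in the shIFI16 libraries and at no more than 28.9 TPM elsewhere, and BEX2 is highest in the radioresistant libraries.

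Among the BEX genes, BEX1 differed most after knockdown. BEX1 (chromosome X, 103062651 to 103064171, GRCh38.p14) read 17.6, 27.1 and 20.3 TPM under shNC against 132, 159 and 175 TPM under shIFI16. Every shIFI16 library lay far above every shNC library. The mean went from 21.7 ± 4.89 to 155 ± 21.6 TPM (SD, n = 3), which is 7.17-fold, or 2.80 on the log2 scale (SE 0.168). Only 7 of the 12567 genes tested had a larger upward difference. In control libraries BEX1 stood at 19.5, 28.9 and 24.1 TPM and in radioresistant libraries at 16.5, 15.3 and 17.7 TPM. All radioresistant libraries lay under the lowest control library, by a small margin (log2 difference -0.51, SE 0.153). That lower call ended with median-ratio scaling, with quantile normalization, and without control replicate 2, radioresistant replicate 1 or radioresistant replicate 2.

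BEX2, whose product is known to join a complex of LMO2 and the neuronal factor NSCL2, differed the other way from BEX1 in both comparisons. BEX2 (103309346 to 103310990) stood at 4.95, 6.96 and 8.59 TPM in control and at 25.5, 19.7 and 16.2 TPM in radioresistant libraries. The groups did not overlap, and the means of 6.83 ± 1.83 and 20.5 ± 4.66 TPM gave a ratio of 3.00 (log2 difference 1.46, SE 0.204). It stood at 9.55, 10.97 and 8.91 TPM with shNC and at 7.23, 6.24 and 5.86 TPM with shIFI16. Each shIFI16 library was below each shNC library (log2 difference -0.54, SE 0.116).

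The balance of BEX1 to BEX2 therefore differed between groups in each table. BEX1 was 2.81 to 4.15 times BEX2 in control libraries and 0.646 to 1.09 times BEX2 in radioresistant libraries. It was 1.84 to 2.47 times BEX2 with shNC and 18.3 to 29.9 times BEX2 with shIFI16. The ratios did not overlap within a table. This had to follow, since BEX1 and BEX2 each had groups that did not overlap, in opposite directions, so it adds nothing to them. BEX1 and BEX2 are close copies, and how reads shared by both were counted is not given in the sources used here, so their split is uncertain. RefSeq also lists each of these symbols as an older name of the other. The rows are taken here at their present meaning.

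BEX4, whose product binds the deacetylase SIRT2 and alpha-tubulin, was low throughout. BEX4 (103215092 to 103217246) stood at 1.52, 2.55 and 1.95 TPM in control and at 0.190, 0 and 0.131 TPM in radioresistant libraries. All control libraries were above all radioresistant ones, with a log2 difference of -1.43 (SE 0.173). BEX4 passed the filter only through the control libraries, which fixes that direction, and the difference was -3.45 with a pseudocount of 0.1. With shNC it stood at 1.44, 1.05 and 0.347 TPM and with shIFI16 at 0.545, 0.915 and 0.945 TPM, overlapping and too low to test. BEX2 and BEX4 share most of the promoter stretch above. Their signs in radioresistant cells were opposite, but nothing is read from this, since that of BEX4 was fixed by the filter. BEX5 (102153712 to 102155977) was listed at 0 in all control and all shNC libraries. It stood at 1.697, 0.430 and 1.43 TPM in radioresistant libraries and at 0, 0.301 and 0 TPM with shIFI16. At an unknown depth, values this low may rest on few reads.

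The TCEAL members stood at 45.1 TPM or more in every library. TCEAL1 (103628716 to 103630953), which encodes a nuclear phosphoprotein that modulates transcription, stood at 106, 97.8 and 67.3 TPM in control and at 68.0, 77.7 and 66.8 TPM in radioresistant libraries. Control replicate 3 lay within the radioresistant range, and the difference of -0.32 (log2, SE 0.163) was not called. Without control replicate 3 it was -0.52 and was called, beside 55.6% of all genes tested in that fit, against 43.9% with all libraries. Nothing is read from that call. With shNC TCEAL1 stood at 74.9, 84.7 and 82.3 TPM and with shIFI16 at 61.3, 58.2 and 54.8 TPM. Those groups did not overlap, and the log2 difference was -0.47 (SE 0.0752).

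TCEAL3 (103607963 to 103609927) stood at 45.1, 67.1 and 102 TPM in control and at 78.0, 62.0 and 67.6 TPM in radioresistant libraries. The control libraries spanned the radioresistant ones on both sides, and the log2 difference was 0.03 (SE 0.257), with the mean TPM a little lower in radioresistant cells. With shNC it stood at 167, 173 and 171 TPM and with shIFI16 at 139, 139.7 and 153 TPM, lower in every shIFI16 library (log2 difference -0.25, SE 0.0624). TCEAL3 has close copies in TCEAL5 and TCEAL6, so its count may include reads of these.

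TCEAL4 (103576231 to 103587729) stood at 80.6, 84.9 and 113 TPM in control, at 89.97, 80.3 and 88.2 TPM in radioresistant, at 259.8, 289 and 276 TPM in shNC and at 229, 238 and 256 TPM in shIFI16 libraries. Control and radioresistant libraries overlapped (log2 difference -0.09, SE 0.138), and the sign of that difference turned with median-ratio scaling and without control replicate 3. The 2 hairpin groups did not overlap (log2 difference -0.19, SE 0.0642). That call of TCEAL4 ended under 8 of 14 alternatives, among them leaving out shNC replicate 2 or 3 or shIFI16 replicate 1 or 2, and its difference lay between -0.23 and -0.15 over all of them.

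TCEAL8 and TCEAL9 were called in neither comparison. TCEAL8 (103252995 to 103255155) ranged from 121 to 161 TPM over the control and radioresistant libraries (log2 difference -0.20, SE 0.112) and from 184 to 214 TPM over the hairpin libraries (0.01, SE 0.0684). Groups overlapped in both tables. TCEAL9 (103356506 to 103358462), first known as a protein that binds WW domains, stood at 171, 171 and 237 TPM in control and at 225, 244 and 221 TPM in radioresistant libraries. Control replicate 3 again lay among the radioresistant libraries (log2 difference 0.27, SE 0.137). Without that library the difference was 0.42 and was called, beside 55.6% of all genes, and nothing is read from this. In the hairpin libraries TCEAL9 ranged from 359.5 to 421 TPM (log2 difference -0.13, SE 0.0611).

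**Figure D3:**
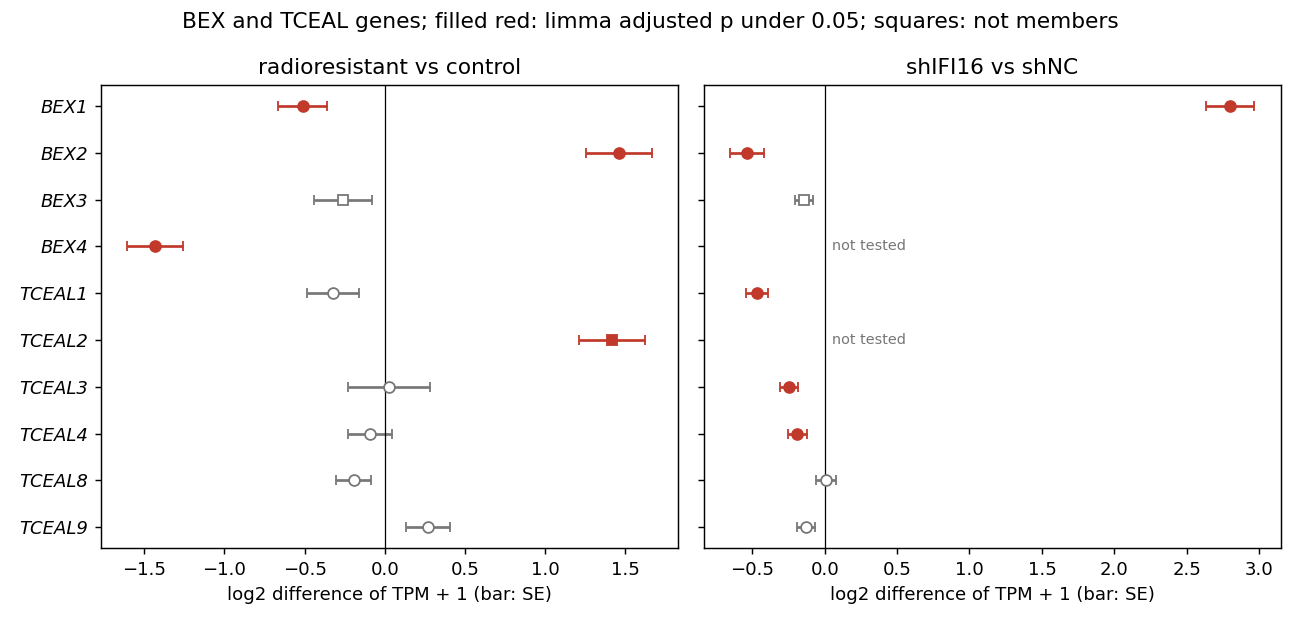
Log2 difference of TPM + 1 with its SE for 10 BEX and TCEAL genes in radioresistant cells and for 8 of them after knockdown, where BEX4 and TCEAL2 were not tested; red filled symbols passed limma's adjusted p of 0.05, open symbols did not, and squares are genes outside the chosen 9. BEX1 lies at -0.51 in radioresistant cells and at 2.80 after IFI16 knockdown, and BEX2 at 1.46 and -0.54.

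Of the 5 relatives outside the chosen set, 2 could be tested in the first table and 1 in the second. TCEAL2 was listed at 0, 0 and 0.0790 TPM in control and at 2.58, 1.82 and 1.03 TPM in radioresistant libraries. TCEAL2 rose by 1.41 (log2, SE 0.205, limma adjusted p = 0.00034, higher in 3 of 3 libraries), but it passed the filter only through the radioresistant libraries, which fixes the direction, and the difference was 3.88 with a pseudocount of 0.1. With shIFI16 it stood at 0.0926, 0 and 0.0955 TPM and with shNC it was listed at 0. BEX3, which encodes the p75-associated death executor NADE and had the highest TPM of the family in every library but radioresistant replicate 2, where TCEAL9 was higher, did not pass in either comparison. It stood at 255, 281 and 387 TPM in control and at 320.5, 214 and 236 TPM in radioresistant libraries (log2 difference -0.26, SE 0.182, limma adjusted p = 0.27). With shNC BEX3 stood at 457, 464 and 510.4 TPM and with shIFI16 at 414, 451 and 427 TPM (-0.15, SE 0.0623, limma adjusted p = 0.085). BEX3 thus did not pass where BEX1, with which it shares most of the promoter stretch above, differed 7.17-fold, and the difference between the 2 genes was not tested. TCEAL5, TCEAL6 and TCEAL7 stayed under 1 TPM in all 12 libraries.

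Summed over all 14 genes, the family held 845 to 1086 TPM in control libraries, 836 to 967 TPM in radioresistant libraries, 1561 to 1686 TPM with shNC and 1531 to 1678 TPM with shIFI16. Groups overlapped within each table. The tables were normalized separately, so the gap between untransduced and hairpin cells was not tested.

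Set among all genes, BEX1 after knockdown was the member farthest from the rest. Only 0.0716% of tested genes had a larger difference in either direction there. In radioresistant cells 4.89% of genes differed by more than BEX2 and 5.1% by more than BEX4, and 95.9% by more than TCEAL3. The lead members had near neighbours in pattern, measured as the Euclidean distance of log2(TPM + 1) over the 12 RNA libraries, each table centred on its own mean, among 12359 genes tested in both tables. Nearest to BEX1 were SCG2, a secretogranin of dense-core vesicles (distance 0.854), the cancer-testis antigen genes MAGEA12 (1.18) and CSAG1 (1.21), the lipoprotein lipase gene LPL (1.19) and the imprinted gene MEST (1.41). After knockdown SCG2 differed by 2.91, MAGEA12 by 3.29, CSAG1 by 2.42, LPL by 2.11 and MEST by 1.87 on the log2 scale. Nearest to BEX2 were the histone gene HIST2H2AA3 (0.376), TMEM132A (0.462), FAM212A (0.515), the lysosomal protease gene CTSD (0.526) and PWWP2B (0.549). Near-identical copies make the values of HIST2H2AA3 and MAGEA12 uncertain.

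**Figure D4:**
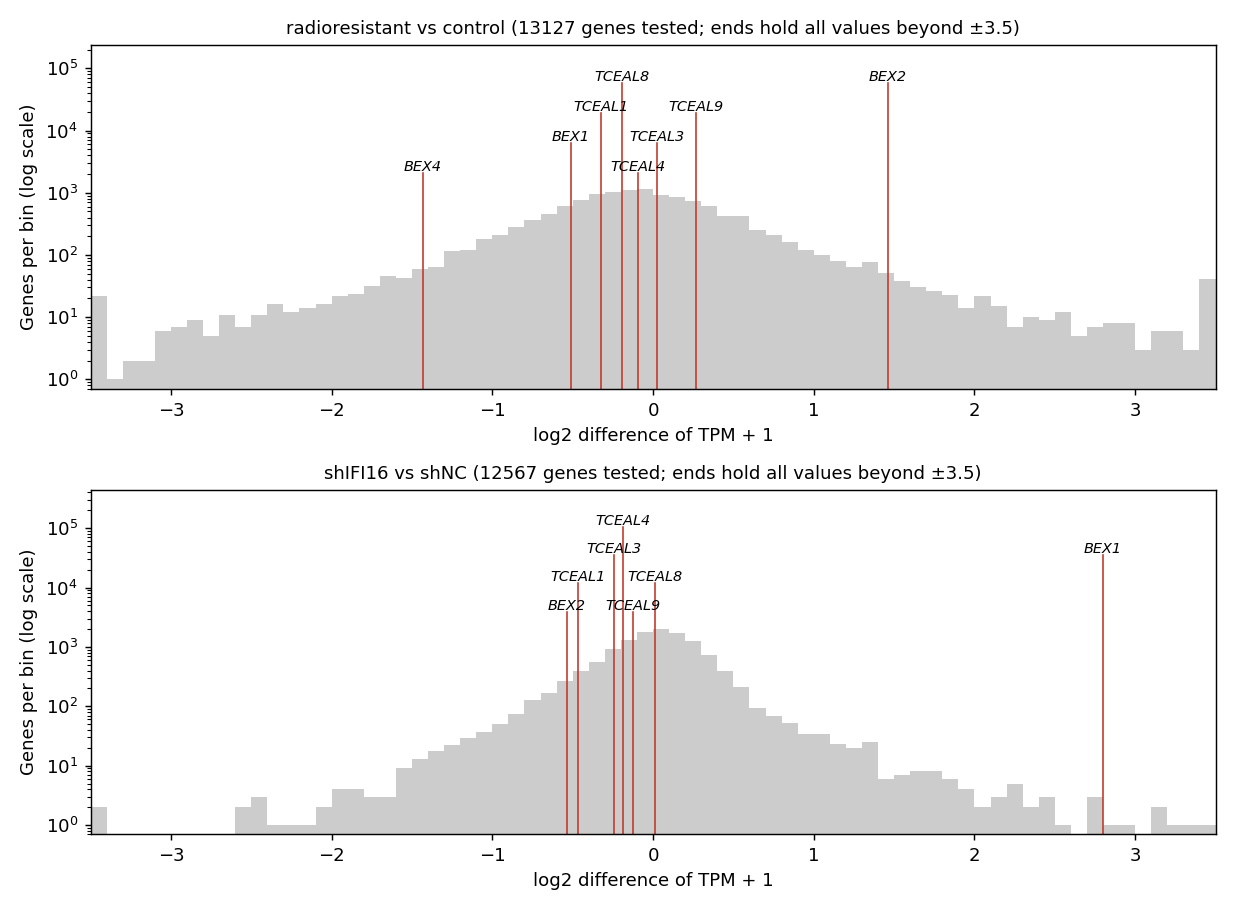
Histogram of log2 differences of TPM + 1 over all genes tested in each comparison, with a logarithmic count axis, and the tested members as red lines (line heights carry no value). In radioresistant cells BEX2 lies toward the upper tail and BEX4 toward the lower, the direction of BEX4 being fixed by the filter. After IFI16 knockdown BEX1 lies alone near the upper end at 2.80, while the other members lie between -0.54 and 0.01.

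The family occupies 1.505 Mb of the X chromosome (102125679 to 103630953) and is interleaved with other genes. BEX1, BEX4, TCEAL8, TCEAL5 and BEX2 lie in that order along the chromosome, and their log2 differences in radioresistant cells were -0.51, -1.43, -0.20, not tested and 1.46. That of BEX4 had its direction fixed by the filter. Of 8 tested ARMCX and GPRASP genes, which encode armadillo-repeat and receptor-sorting proteins, 2 rose and 1 fell in radioresistant cells. ARMCX2 rose from 21.7 ± 2.11 to 41.8 ± 7.90 TPM (log2 0.91, limma adjusted p = 0.00099) and ARMCX1 from 8.47 ± 0.839 to 15.9 ± 2.17 TPM (0.83, adjusted p = 0.001), while BHLHB9 fell by 0.65 (adjusted p = 0.01). After knockdown 1 rose and 2 fell, with ARMCX2 again higher (0.58, limma adjusted p = 0.00012) and ARMCX1 now lower (-0.41, adjusted p = 0.015). The lower call of ARMCX1 ended without shNC replicate 1 (adjusted p = 0.055) and without shIFI16 replicate 2 (0.069). Of other Xq22 genes listed, 4 of 17 rose and 5 fell in radioresistant cells, and 2 of 16 rose and 0 fell after knockdown. Over all genes tested, 16.9% rose and 27% fell in radioresistant cells, and 16.6% and 16.3% after knockdown. PCDH19, among the 5 that fell, passed the filter only through control libraries. After knockdown TMSB15A, among the 2 that rose, had overlapping groups. Its call and the lower call of ARMCX6 ended with plain moderation (limma adjusted p = 0.088 and 0.10), with median-ratio scaling and with no low-value filter. The TMSB15A call also ended with quantile normalization and without shNC replicate 1 or 3 or shIFI16 replicate 2 or 3. That of ARMCX6 also ended without shNC replicate 2 or 3 or shIFI16 replicate 1, 2 or 3.

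**Figure D5:**
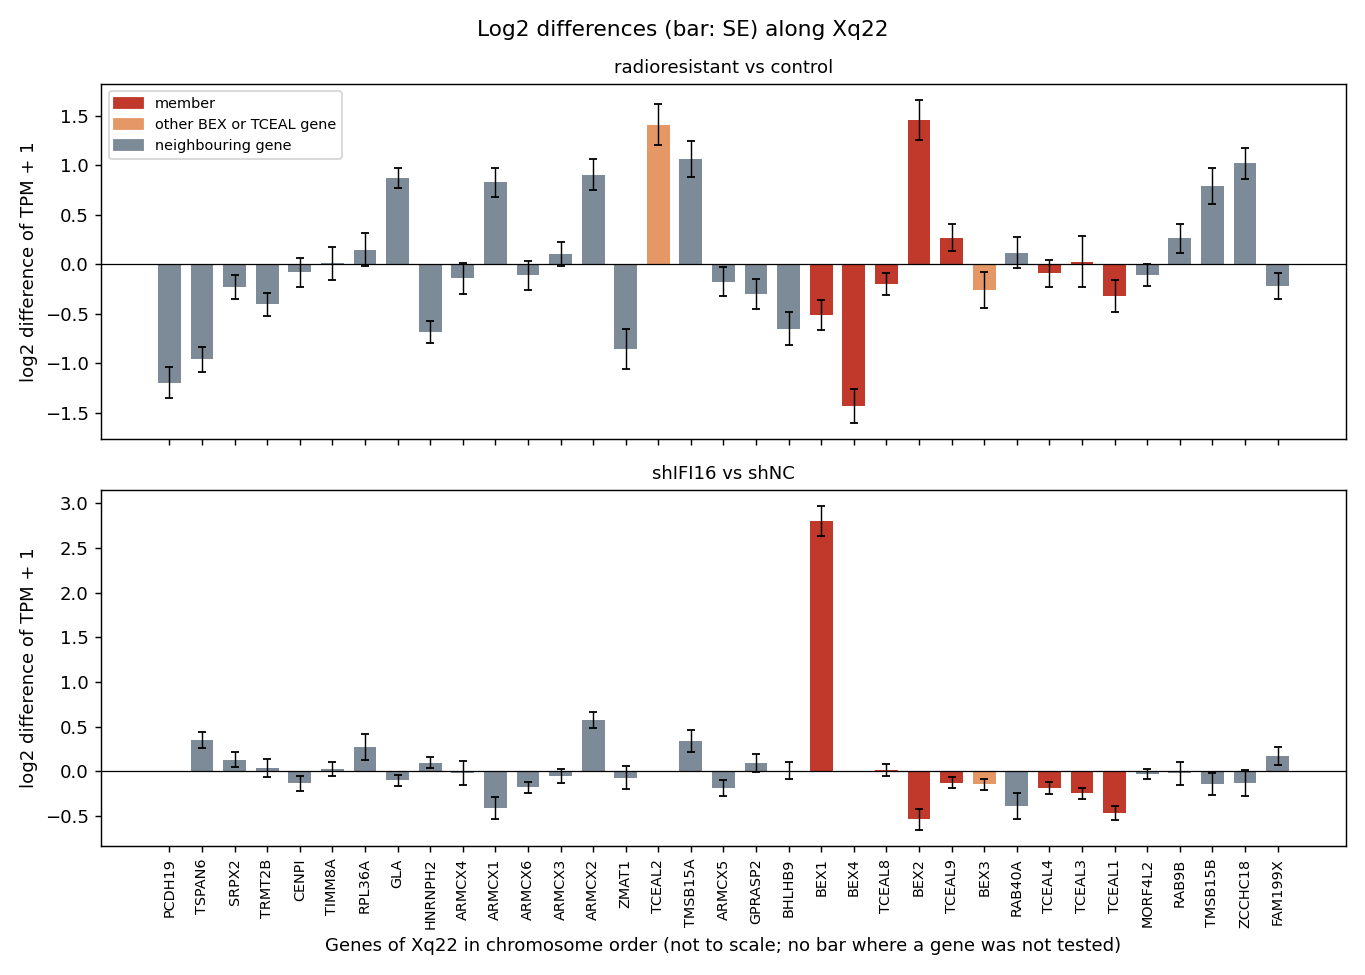
Log2 differences of TPM + 1 with their SE for tested genes of Xq22, in chromosome order and not to scale; members are red, other BEX and TCEAL genes orange and neighbours grey. Bars point both ways along the stretch in radioresistant cells, and after IFI16 knockdown the bar of BEX1 (2.80) exceeds that of every other gene shown.

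No ATAC-seq summit lay near a member in either library. The authors' lists held 2454 summits in the control and 12877 in the radioresistant library, with 1 library per condition and therefore no test. Within 5 kb of a gene start, 0 of 9 members had a summit in either list, and 4.29% and 23.1% of all genes had one. The nearest summit to a member start was 58.1 to 204.5 kb away in the radioresistant list and 290.2 to 1174.8 kb away in the control list. Across the family's span the control list held 0 summits and the radioresistant list 3, one of them 47 bases from the start of ARMCX5. TCEAL8 and TCEAL9, at 121 TPM or more in every RNA library, had no listed summit either, so a missing summit here does not mark a silent gene.

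Genes tied to the members by known function were taken from lists. Over all genes tested, 16.9% rose and 27% fell in radioresistant cells, and 16.6% rose and 16.3% fell after knockdown. The counts below stand beside these shares. In the neurotrophin and p75 list 5 of 17 tested genes rose and 4 fell in radioresistant cells, and 2 of 14 rose and 3 fell after knockdown (medians 0.08 and 0.04). The 2 that rose after knockdown, SORT1 and RHOA, did not pass with plain moderation (limma adjusted p = 0.068 and 0.13) or with no low-value filter. Neither passed without shNC replicate 3 or without shIFI16 replicate 1 or 2, and RHOA also not with median-ratio scaling or without shNC replicate 1. Of the 3 that fell, MAGED1 did not pass without shNC replicate 1 or 2 or shIFI16 replicate 2 or 3. NGFR, the p75 receptor itself that BEX1 and BEX3 bind, was too low to test, at 0.0633 ± 0.0122 TPM in control, 0.259 ± 0.157 in radioresistant, 0.110 ± 0.0282 in shNC and 0.0525 ± 0.0282 in shIFI16 libraries. MAGED1, another adaptor of p75, fell from 112 ± 5.44 to 46.004 ± 7.76 TPM in radioresistant cells (log2 -1.27, limma adjusted p = 4.5e-05). MAGEH1, related to it, rose from 7.33 ± 0.983 to 17.8 ± 0.300 TPM (1.18, adjusted p = 6.4e-05). The neurotrophin receptor gene NTRK3 fell from 3.67 ± 0.879 to 0.151 ± 0.0671 TPM (-2.01, limma adjusted p = 9.6e-06), having passed the filter only through control libraries (-3.92 with a pseudocount of 0.1). RTN4R, a Nogo receptor that pairs with p75, rose in radioresistant cells (0.93, limma adjusted p = 0.00051) and fell after knockdown (-0.58, adjusted p = 0.0053); with a pseudocount of 0.1 these were 1.45 and -0.93.

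In the list of BEX2 and BEX4 partners 1 of 6 tested genes rose and 1 fell in radioresistant cells, and 1 of 5 rose and 3 fell after knockdown (medians -0.06 and -0.28). LMO2, a partner of BEX2, stood at 0, 0 and 0.249 TPM in control and at 6.36, 6.02 and 3.73 TPM in radioresistant libraries. LMO2 rose by 2.54 (log2, limma adjusted p = 5e-06), with its direction fixed by a filter it passed only through radioresistant libraries (5.14 with a pseudocount of 0.1). Under shNC and shIFI16 LMO2 was below 1 TPM and not tested. NHLH2, which encodes NSCL2, was listed at 0 in all 12 libraries. TUBA1A, an alpha-tubulin gene with close copies, fell from 2242 ± 304 to 711 ± 134 TPM in radioresistant cells (-1.66, limma adjusted p = 1.9e-05) and by 0.40 after knockdown (adjusted p = 8.6e-05). The mitotic kinase gene PLK1 fell by 0.34 after knockdown (limma adjusted p = 0.00063) and LDB1, which bridges LMO2 complexes, rose by 0.36 (adjusted p = 0.0082). SIRT2 differed by -0.08 in radioresistant cells (limma adjusted p = 0.63) and fell by 0.28 after knockdown (adjusted p = 0.017), a call that ended without shNC replicate 3 (0.070) and without shIFI16 replicate 2 (0.071).

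Of 26 tested transcription elongation genes, to which TCEAL proteins are related, 2 rose and 6 fell in radioresistant cells, and 6 rose and 3 fell after knockdown (medians 0.02 and 0.07). Of the TFIIS genes, which the TCEAL genes resemble, TCEA2 fell from 26.9 ± 0.839 to 14.1 ± 3.51 TPM in radioresistant cells (log2 -0.91, limma adjusted p = 0.0015) and differed by 0.09 after knockdown (adjusted p = 0.55). TCEA1 differed by -0.27 and 0.14 (adjusted p = 0.11 and 0.35), and TCEA3 was too low to test. The negative elongation factor gene NELFCD fell by 0.79 in radioresistant cells (limma adjusted p = 0.00011). SSRP1, a subunit of the histone chaperone FACT, rose by 0.39 after knockdown (limma adjusted p = 0.00017), and the elongation factor gene ELL2 fell by 0.45 (adjusted p = 0.0013). The calls of ELOA and SUPT16H, among the 6 that rose, ended without shNC replicate 3. That of SUPT16H also ended with plain moderation and with no low-value filter.

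Among 12 enzymes and readers of DNA methylation, 1 rose and 2 fell in radioresistant cells, and 4 rose and 1 fell after knockdown (medians -0.01 and 0.13). TET1, among the 4, passed the filter only through shIFI16 libraries, and its call ended without shNC replicate 1 or 3. That of DNMT3A, also among the 4, ended without shIFI16 replicate 2. TET1 was also among the 2 that fell in radioresistant cells, a call that ended without control replicate 1 or 2 or radioresistant replicate 1 or 3. The methyltransferase gene DNMT3A fell from 15.6 ± 1.26 to 7.06 ± 1.39 TPM in radioresistant cells (log2 -1.05, limma adjusted p = 0.00035). After knockdown the demethylase gene TET3 rose by 0.53 (limma adjusted p = 0.0078) and MBD3 fell by 0.36 (adjusted p = 0.00037). Of the corepressors around REST, which silences neuronal genes, 0 of 9 rose and 1 fell in radioresistant cells, and 3 of 10 rose and 1 fell after knockdown (medians -0.13 and 0.20). HMG20B fell by 0.69 after knockdown (limma adjusted p = 1.5e-06). It is also the gene that fell in radioresistant cells, a call that ended under 6 alternatives: median-ratio scaling, no low-value filter, and without control replicate 2 or radioresistant replicate 1, 2 or 3. RCOR2 rose by 1.01 after knockdown (limma adjusted p = 0.00028), having passed the filter only through shIFI16 libraries (2.37 with a pseudocount of 0.1). The call of HDAC1, also among the 3 that rose, ended with median-ratio scaling and with plain moderation. It also ended without shNC replicate 1 or 3 or shIFI16 replicate 2. DNA methylation was not measured, and the part of these genes in the BEX1 difference was not tested.

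The members are known as neuronal genes, so markers of neurons are given beside them. Of 16 neuron markers 7 were tested. In radioresistant cells 0 rose and 4 fell, and after knockdown 1 rose and 4 fell (medians -0.40 and -0.17). The call of UCHL1 in radioresistant cells ended with median-ratio scaling (limma adjusted p = 0.11), with plain moderation and with no low-value filter. It also ended without control replicate 1 or 2 and without radioresistant replicate 1, 2 or 3. That of TUBB3 there ended with median-ratio scaling (limma adjusted p = 0.083) and without control replicate 2 or radioresistant replicate 3. After knockdown the TUBB3 call ended with plain moderation (limma adjusted p = 0.11). It also ended without shNC replicate 1, 2 or 3 or shIFI16 replicate 2 or 3. The summed TPM of the 16 markers was 4100 to 5035 in control and 2648 to 2815 in radioresistant libraries. Most of that was UCHL1 and NEFL, at means of 2886 and 1277 TPM in control and 2167 and 211 TPM in radioresistant libraries. The sum was 1902 to 1994 in shNC and 1836 to 1916 in shIFI16 libraries, where the sums overlapped. Most of it there was UCHL1, at a mean of 1466 TPM with shNC and 1422 TPM with shIFI16 (log2 difference -0.04). The overlap of the sums therefore says little about the other markers. The defining neuron markers STMN2, RBFOX3 and DCX stood at or near 0 in every group. The neurofilament gene NEFL fell by 2.60 in radioresistant cells (limma adjusted p = 9.4e-08) and rose by 0.26 after knockdown (adjusted p = 0.0087), and SYT1, a synaptic vesicle gene, fell by 0.89 and 0.72 (adjusted p = 0.0017 and 4e-05). Astrocyte markers fell in 6 of 6 tested cases in radioresistant cells, with S100B having passed the filter only through control libraries. Their summed TPM was 4598 to 4754 in control and 313 to 359.9 in radioresistant libraries. Most of the control sum was GFAP, at a mean of 4011 TPM, against 80.6 TPM in radioresistant libraries. The fall of the sum therefore says little about the other markers. After knockdown 2 of 5 rose and 0 fell, and the sum was 229.6 to 251.5 TPM with shNC and 274 to 313 TPM with shIFI16. GFAP, the astrocyte intermediate filament gene, fell by 5.66 in radioresistant cells (limma adjusted p = 9.9e-09) and rose by 3.56 after knockdown (1.73 ± 0.344 to 31.1 ± 1.67 TPM, adjusted p = 3.6e-12), beside the higher BEX1. Of the other cell types, 1 oligodendrocyte gene, 1 immune gene and 2 endothelial genes could be tested in each table. In radioresistant cells 1 endothelial gene, CDH5, fell, having passed the filter only through control libraries, and none of these rose, although CNP passed as higher with median-ratio scaling, with quantile normalization and without control replicate 3. After knockdown the oligodendrocyte gene CNP and CDH5 rose and the macrophage gene CD68 fell. The part of these markers in the results was not tested, and in bulk RNA a change in the share of cells and a change per cell cannot be told apart.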

How the data were processed

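Expression was measured in 12 RNA-seq libraries and open chromatin in 2 ATAC-seq libraries. The authors deposited TPM, although the tables are named as counts: each column summed to 1000000 and values were not whole. Per the submitters' processing notes the build was hg38 and the tools were featureCounts, Cufflinks 2.2.1, TopHat and Trim Galore 0.6.6, and for ATAC-seq also MACS2 2.1.4, SAMtools 1.10 and Bowtie2 2.2.5. The sources used here do not say which tool made the TPM, on which annotation, or whether strand was used. The deposited summit lists carry a -log10 q-value as score.

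Each table was fitted separately with limma 3.58.1 (trend, robust; R 4.3.3) on log2(TPM + 1), for genes at 1 TPM or more in at least 3 of 6 libraries, with Benjamini-Hochberg adjustment over all genes tested and a threshold of 0.05. The fit was tested on simulated data. Left out were 28 date-like entries without a gene name (0.115 to 0.190% of TPM). Promoter windows and gene positions came from RefSeq (GRCh38.p14), which held windows for all 9 members and 13 of 14 family genes, with none for TCEAL7. Members and lists were chosen with earlier results of these data known. Named were all members and relatives, up to 4 tested genes per list by smallest p, and 5 nearest patterns per lead member. NGFR, NHLH2, STMN2, RBFOX3, DCX, TCEA1 and TCEA3 fall outside that rule, as do TCEA2 and UCHL1 after knockdown and SIRT2 in radioresistant cells. They were named after their values were seen. Alternatives were other pseudocounts, filters, scalings and moderation, a replicate block, each library left out, and other summit windows.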

Additional observations from a re-analysis of the deposited data

How the results depend on the processing

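For members called in radioresistant cells the count of 3 became 1 without control replicate 2, where BEX4 could no longer be tested and BEX1 did not pass, and leaving out each replicate gave 1 to 4; over all genes 30.2% were called without control replicate 2 and 55.6% without control replicate 3, against 43.9%. After knockdown the count of 5 lay between 4 and 6 when a replicate was left out. The 42 calls among listed genes outside the members after knockdown lay between 23 (without shIFI16 replicate 2) and 43, with 27 without shNC replicate 3; the corresponding 47 calls in radioresistant cells lay between 34 and 60. Directions turned only for differences near 0 that passed under no setting. TCEAL3 in radioresistant cells was -0.26 without control replicate 1 and -0.06 without radioresistant replicate 1, in a range of -0.26 to 0.32 with 1 library left out. TCEAL4 there was 0.032 with median-ratio scaling and 0.057 without control replicate 3 (range -0.19 to 0.057 with 1 library left out), and LDB1 was 0.013 and 0.011 under the same settings (-0.23 to 0.011 with 1 library left out). TCEAL8 after knockdown was -0.012 with median-ratio scaling and -0.043 without shNC replicate 1 (range -0.043 to 0.066 with 1 library left out), and also turned without shIFI16 replicate 2 (-0.0041) or 3 (-0.020). The cause was not tested. BEX1 after knockdown lay between 2.67 and 2.96, and BEX2 in radioresistant cells between 1.27 and 1.62, over all 14 alternatives. These ranges are a description, since the members were chosen with results known. Median-ratio scaling moved the median of all genes in radioresistant cells from -0.11 to 0.01. Whether replicate numbers pair the libraries was not settled. Deviations of same-numbered libraries correlated at -0.377, 0.245 and 0.081 in the first table and 0.215, 0.088 and 0.028 in the second. Those of differently numbered libraries lay between -0.429 and 0.394 in the first and between -0.231 and 0.148 in the second. With the replicate block 3 members were called in radioresistant cells and 6 after knockdown, beside 42.4% and 44.6% of all genes (43.9% and 32.9% without it), with TCEAL9 added, and BEX3 passed after knockdown (limma adjusted p = 0.020, range 0.020 to 0.36). Other summit windows and a stricter score left 0 members with a summit. Depth is unknown, so BEX4, BEX5 and TCEAL2 have no counting error.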
